A study of Homo sapiens with 2 samples.

Results

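The imprinted small RNA cluster at 14q32 was taken as the 103 gene intervals whose symbol begins with MIR, hsa-mir or SNORD and that start in a window of 260 kb of chromosome 14, out of 40237 intervals in the table. The members run from 101315645 to 101533138 in hg19, from the distal part of MEG3 to MIR656. They are 49 microRNA genes and 54 genes for C/D box small nucleolar RNAs (snoRNAs), all on the plus strand and with 0 of them overlapping another member. The measurement is a ChIP-seq of H3K9me3, trimethylation of lysine 9 of histone H3, in KBM7, a cell line from a chronic myeloid leukemia with a near-haploid karyotype. Chromatin was crosslinked with 1% formaldehyde and sheared towards 300 bp, and 5 ug of antibody was used, Abcam ab8898 for H3K9me3. An IgG library of the same line is part of the study and was not analysed here. All values come from 1 H3K9me3 library, so no value has a replicate or a control beside it and no test between groups was possible.

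As background, the domain from DLK1 to DIO3 is imprinted: DLK1, RTL1 and DIO3 are expressed from the paternal chromosome, and the long noncoding RNA genes MEG3 and MEG8 and the small RNA genes are expressed from the maternal one. The microRNAs and snoRNAs are processed from long noncoding transcripts of the domain, and many of them are most abundant in brain, placenta and embryo. MicroRNAs find their targets mainly through the seed, the bases 2 to 8 of the mature strand. The SNORD113 and SNORD114 snoRNAs form tandem arrays of similar copies and count as orphans, without an established ribosomal RNA target. H3K9me3 is the mark of constitutive heterochromatin and is also known at the methylated copy of imprinting control regions. In a near-haploid line most autosomes are present as a single copy, and which parental copy of the domain KBM7 holds was not analysed here.

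The microRNA sequences come from RefSeq (GRCh38.p14, plus strand), which held all 49 microRNA members, 2 of them under a newer symbol (MIR323A for MIR323 and MIR544A for MIR544). SnoRNA sequences were not used here. The first set shown is that of the 5 microRNA genes that lie inside the RTL1 interval on the strand opposite to RTL1, where the highest level of the cluster was measured. Capitals mark the seed, and both strands of each hairpin are given.
hsa-miR-431-5p: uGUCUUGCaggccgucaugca
hsa-miR-431-3p: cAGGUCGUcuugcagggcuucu
hsa-miR-433-5p: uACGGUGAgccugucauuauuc
hsa-miR-433-3p: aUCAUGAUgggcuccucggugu
hsa-miR-127-5p: cUGAAGCUcagagggcucugau
hsa-miR-127-3p: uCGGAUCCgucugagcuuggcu
hsa-miR-432-5p: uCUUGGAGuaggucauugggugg
hsa-miR-432-3p: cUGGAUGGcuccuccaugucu
hsa-miR-136-5p: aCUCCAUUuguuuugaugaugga
hsa-miR-136-3p: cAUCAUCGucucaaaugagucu

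The second set shows mature strands that share a seed, all from genes between MIR379 and MIR656, the distal part of the cluster, where 8 of the 11 peaks that hold a member lay. The 49 genes gave 89 mature strands with 77 different seeds, and 11 seeds were shared by 2 or more genes, 18 genes in all. Of these seeds 5 are shown, in capitals.
hsa-miR-300: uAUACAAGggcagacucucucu
hsa-miR-381-3p: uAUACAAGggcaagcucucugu
hsa-miR-154-3p: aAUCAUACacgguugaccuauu
hsa-miR-487a-3p: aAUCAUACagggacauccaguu
hsa-miR-379-3p: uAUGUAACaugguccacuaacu
hsa-miR-411-3p: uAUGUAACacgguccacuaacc
hsa-miR-485-3p: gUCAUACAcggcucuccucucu
hsa-miR-539-3p: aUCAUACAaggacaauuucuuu
hsa-miR-323b-5p: aGGUUGUCcguggugaguucgca
hsa-miR-410-5p: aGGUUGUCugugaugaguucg
hsa-miR-494-5p: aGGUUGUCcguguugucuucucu

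Hairpins of a few genes show what an interval of the table holds, from the lowest microRNA gene of the cluster (MIR493), the first gene of the distal part (MIR379) and the highest gene of that part (MIR154). Capitals mark the mature strands.
MIR493: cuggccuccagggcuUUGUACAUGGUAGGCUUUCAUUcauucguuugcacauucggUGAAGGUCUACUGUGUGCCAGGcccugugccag
MIR379: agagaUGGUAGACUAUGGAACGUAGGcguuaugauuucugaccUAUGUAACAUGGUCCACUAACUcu
MIR154: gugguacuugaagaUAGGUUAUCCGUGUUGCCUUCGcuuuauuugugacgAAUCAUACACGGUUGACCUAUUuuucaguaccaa

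The microRNA genes of the cluster carried more H3K9me3 than the snoRNA genes between them. The 49 microRNA genes held 10 to 78 reads with a median of 47, and the 54 snoRNA genes held 6 to 41 reads with a median of 17. Members span 58 to 124 bp, with a median of 75 bp, so they are far shorter than a chromatin fragment. Over 2949 short intervals elsewhere in the genome, reads per kb were higher than in the longer intervals that hold them, by as much as a flank of 0.273 kb added to each would give. How the authors counted reads at interval edges is not stated. The score used for members, called the corrected score, therefore divides reads by the interval length plus that flank. At the median level of all intervals, 37.9 reads per kb, a member of median length would hold 13.2 reads.

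By the corrected score, 48 of the 49 microRNA genes lay above the median of all intervals, at a median level of 131 reads per kb. Of the 54 snoRNA genes 39 did, and their median level was 48.7 reads per kb. A level of at least 2 times the median of all intervals was reached by 46 microRNA genes and 5 snoRNA genes, and by 16.6% of all intervals and 24.3% of the other MIR, hsa-mir and SNORD intervals. The microRNA count is above that background. The snoRNA count moves with the flank. Of the 53 snoRNA genes of MEG8 and the array, 9.43% reached that level with the flank used here. Of all intervals 16.6% did, and of those under 0.2 kb 19.1%. With a flank of 0.233 kb 15.1% of the snoRNA genes did, against 17.0% and 22.8%. With 2 times the flank 1.89% did, against 16.7% and 7.35%, and with no flank 92.5%, against 23.02% and 67.2%. The snoRNA share thus lay below both backgrounds with each of these flanks and above both with none. It depends on the correction and is not read as below the background. SNORD intervals elsewhere other than SNORD115 and SNORD116 reached that level in 27 of 290 cases (9.31%). The pooled corrected score was 127 (122 to 132) for microRNA genes and 49.4 (46.2 to 52.7) for snoRNA genes, a ratio of 2.57 (2.38 to 2.78). Brackets after scores are exact Poisson 95% intervals and those of ratios are exact binomial ones, and they cover counting error only. Those of shares are exact binomial ones that take genes as independent, although neighbouring genes share peaks. The counting interval of a single gene is wide: 39 of the 54 snoRNA genes had one that included the median of all intervals, 14 lay wholly above it and 1 wholly below. Of the microRNA genes 46 had an interval wholly above it.

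Peaks separated both kinds of gene further. A peak overlapped 40 of the 49 microRNA genes by 1 bp or more (81.6%, interval 68.0 to 91.2), and 0 of the 54 snoRNA genes (interval up to 6.60%). These intervals take genes as independent, which they are not. The 40 genes lay in only 11 peaks, and 52 of the 54 snoRNA genes lay in 1 gap between peaks. Over all intervals 33.5% overlapped a peak, and 7.91% of intervals under 0.2 kb and 13.1% of the other MIR, hsa-mir and SNORD intervals did so. Of the 40 genes, 38 lay wholly inside a peak. Reads and peaks come from the same library and are not separate evidence.

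**Figure D1:**
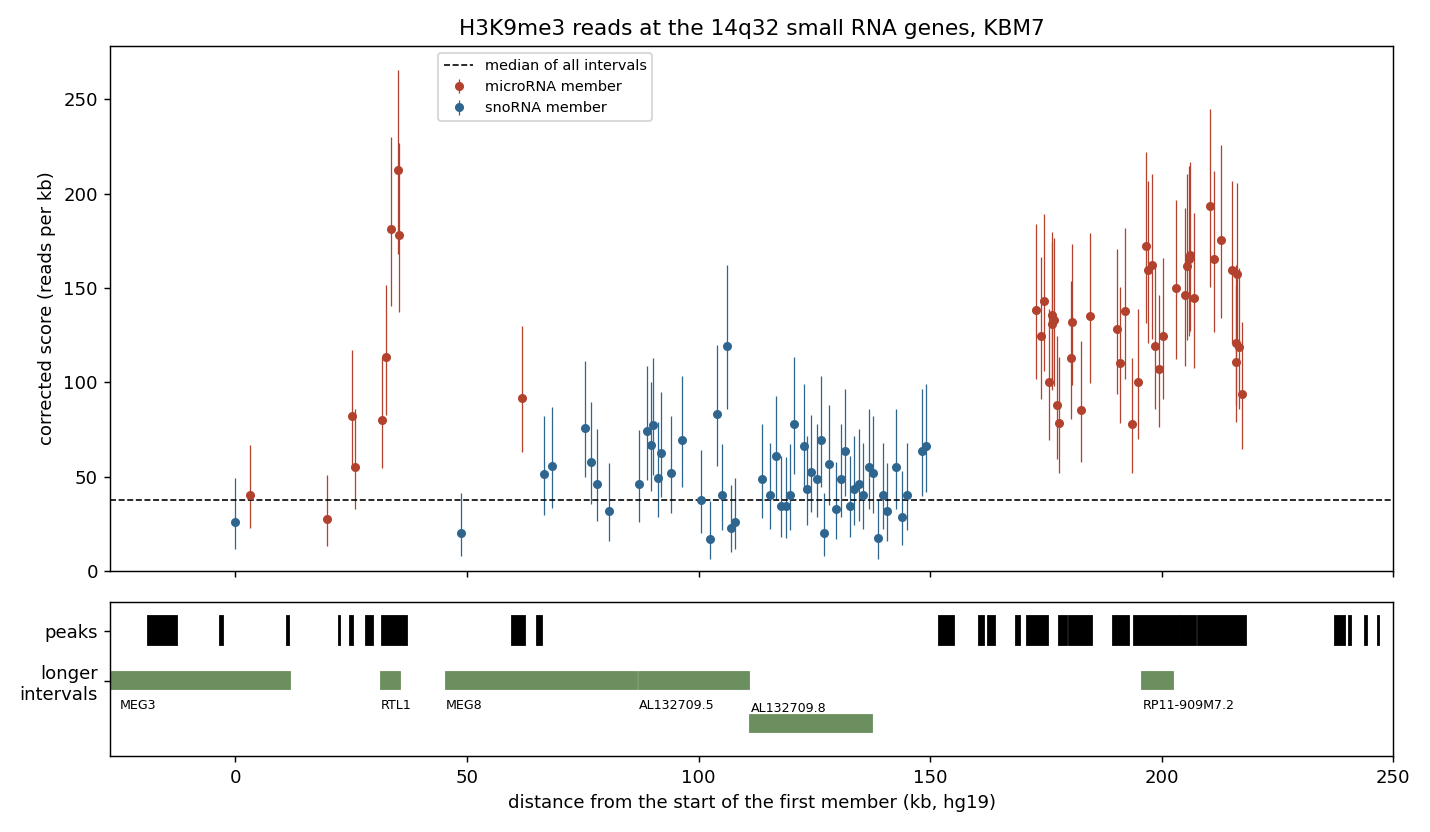
Corrected score in reads per kb of each of the 103 members against its distance in kb from the start of the first member, with exact Poisson 95% bars for counting error, above the deposited peaks (black) and longer intervals of the table (green). MicroRNA genes inside RTL1 and from MIR379 to MIR656 lie mostly above 100 reads per kb under peaks, and the snoRNA genes of MEG8 and the array lie nearer the median of all intervals, 37.9 reads per kb (dashed), with no peak over them.

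Along the cluster the level changed in steps, so the members are described in 4 stretches set after the data were seen. These are the part from MEG3 up to RTL1 (5 members), RTL1 itself (5), MEG8 with the snoRNA array (54) and the stretch from MIR379 to MIR656 (39). Their pooled corrected scores were 46.4 (37.0 to 57.5), 152 (135 to 170), 50.6 (47.4 to 53.9) and 132 (126 to 139) reads per kb. MEG8 with the array holds 53 of the 54 snoRNA genes, and MIR379 to MIR656 holds 39 of the 49 microRNA genes, so kind of RNA and position in the domain cannot be told apart for them.

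In the proximal part, members inside and just after MEG3, a long noncoding RNA with tumour suppressor activity in cultured cells, were low. MIR770, which lies in MEG3, held 15 reads, a corrected score of 40.4 (22.6 to 66.7), and the SNORD112-named interval in MEG3 held 9 reads and 26.1 (11.9 to 49.5). MIR493, at 101335397, had 10 reads and 27.6 (13.2 to 50.8), the lowest level of any microRNA member. MIR665 followed with 19 reads and 55.1 (33.2 to 86.0), again without a peak. MIR337 held 30 reads and 82.0 (55.3 to 117.0) and lay in a peak of 750 bp. These 5 genes rest on few reads, and the intervals of MIR770, MIR493 and MIR665 overlap one another.

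RTL1, a gene derived from a retrotransposon and needed in the placenta of the mouse, is encoded on the minus strand at 101346992 to 101351184, and a peak of 5400 bp covered 95% of it. Of the intervals of 2 kb or more 3.93% lay by 50% or more in peaks. The deposited score of RTL1 was 163 (151 to 176) reads per kb over 4.193 kb. The microRNAs on the opposite strand are known in mouse to cleave the Rtl1 transcript, to which they are fully complementary. MIR431 held 31 reads and MIR433 held 45, with corrected scores of 80.1 (54.4 to 114) and 113 (82.7 to 152). MIR127, reported to target BCL6 in human cancer cells, held 67 reads and 181 (140.3 to 230.0). MIR432 and MIR136 held 78 and 65 reads, with 213 (168 to 265) and 178 (137 to 227). All 5 lay wholly in the peak, and MIR432 was the highest of the 103 members. Going along the plus strand the lower pair, MIR431 and MIR433, comes first, and the intervals of MIR431 and MIR127 did not overlap. MIR432 and MIR136 are 121 bp apart, closer than the flank, so some reads can count in both.

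MEG8, the long noncoding host of several of the snoRNAs, had a deposited score of 55.7 (53.5 to 58.0) reads per kb over 41.23 kb, with 9.82% of it in peaks. MIR370, the only microRNA member in it, held 32 reads, a corrected score of 92.0 (62.9 to 129.8), and lay in a peak of 3000 bp from 101375251 to 101378250. The 53 snoRNA members of this stretch had a corrected median of 48.9 reads per kb (25th to 75th percentile 37.7 to 62.9). SNORD114-5 was highest with 41 reads and 119.5 (85.8 to 162), and the only snoRNA member above 100. SNORD114-3 held 29 reads and 83.3 (55.8 to 119.7), and SNORD114-13 held 27 reads and 77.8 (51.3 to 113). At the low end SNORD114-2 and SNORD114-27 held 6 reads each, with 17.1 (6.27 to 37.2) and 17.5 (6.42 to 38.1). The SNORD112-named interval at 101364257 held 7 reads, with an interval of the corrected score of 8.04 to 41.2. Neighbouring copies could differ: the SNORD113-named interval 801 bp beyond SNORD114-5, picked after its value was seen, held 8 reads and 23.1 (9.98 to 45.6).

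The snoRNA families were not resolved from one another. Pooled corrected scores were 48.8 (40.9 to 57.8) for the 8 intervals named SNORD112, 53.6 (47.5 to 60.3) for the 15 of SNORD113 and 47.5 (43.4 to 51.8) for the 31 of SNORD114. Their intervals overlap, which does not show that the levels are equal. The variance of the reads around the pooled level of the 53 snoRNA genes was 2.58 times that of counting alone. The counting interval of 4 of these snoRNA genes lay above the pooled level and that of 6 lay below it. Such spread was not particular to them. The same ratio was 2.21 for the 39 genes from MIR379 to MIR656 and 7.42 for the 5 of RTL1. Intervals of pooled scores do not include this spread. Several intervals named SNORD112 or SNORD113 carry no copy number in the table, and they are told apart here by their start.

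The peak-free stretch around the array was long. Between the peaks that end at 101381850 and start at 101467651 there were 85.8 kb without a peak, which held 52 members, all snoRNA genes. The median distance between neighbouring peaks on chromosome 14 was 4500 bp, and 231 of its 4071 distances (5.67%) were at least as long, so a gap of this size is not rare there. The snoRNA genes of the stretch lay 323 to 41653 bp from the nearest peak. Similar copies can leave reads that cannot be placed, and mappability was not used here. The longer intervals over the array, AL132709.5 (23.706 kb) and AL132709.8 (26.142 kb), hold mostly other sequence, since snoRNA members make up 4.36% and 6.24% of their length. Their deposited scores were 45.1 (42.4 to 47.8) and 42.8 (40.3 to 45.3) reads per kb, with no peak. The snoRNA genes inside them had pooled corrected scores of 57.1 and 48.2, against a median of 38.0 reads per kb over all intervals at least 2 kb long.

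From MIR379 to MIR656 the mark was broad. The 8 peaks there ran from 101486551 to 101533950, a span of 47.4 kb of which they covered 80.7%. All 39 microRNA genes of the stretch had a corrected score at least 2 times the median of all intervals, with a counting interval wholly above that median. Their scores ran from 78.0 to 193 reads per kb with a median of 133. A peak overlapped 33 of them (84.6%, interval 69.5 to 94.1, which takes genes as independent though they share the 8 peaks). The stretch had 2.66 times the pooled corrected score of the 53 snoRNA genes before it (2.45 to 2.88). The 2 sets overlapped little: 26 of the 39 microRNA genes lay above the highest snoRNA gene, SNORD114-5, and 37 above the second highest, SNORD114-3.

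MIR379, first of the stretch, held 47 reads and 138 (102 to 184), and lay with MIR411 (46 reads, 125) and MIR299 (49 reads, 143) in a peak of 4650 bp. MIR154, the highest, held 69 reads and 193 (150.4 to 245), and MIR377 held 60 reads and 175 (134 to 226). MIR381 was close to them with 60 reads and 172 (132 to 222). MIR134, which limits the size of dendritic spines in rat neurons, held 56 reads and 162 (122 to 210), and the nearby MIR485 held 58 reads and 168 (127 to 217). MIR409, MIR410 and MIR656, at the distal end, were lower with 39, 42 and 33 reads and 111, 119 and 94.0. The intervals of the genes named here overlap for the most part, so most of the order within the stretch is not resolved by the counts. That of MIR154 does not overlap that of MIR656 (64.7 to 132), nor that of MIR1185-1.

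Peak by peak, the 3 peaks with most members had pooled corrected scores of 137 (123 to 151) for the 8 genes from MIR1185-2 to MIR487A, 157 (139 to 177) for the 5 from MIR382 to MIR323B and 144 (131 to 158) for the 9 from MIR154 to MIR656. The 3 genes from MIR494 to MIR543 had 111 (92.2 to 133), and the 3 from MIR376C to MIR300 had 125 (105 to 148). The widest peak, 10350 bp, held the last 9 genes, and another of 10050 bp held 8. Chromosome 14 had 4072 peaks with a median width of 900 bp, and 10 of them (0.246%) were at least as wide as the widest one of the cluster.

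The 6 genes of the stretch outside peaks, some of which were picked for this after their values were seen, lay above most snoRNA genes. MIR1197, MIR323 and MIR758 held 49, 47 and 48 reads, with corrected scores of 136, 131 and 133 reads per kb. They lie 81 and 203 bp apart, closer than the flank, so some reads can count in more than 1 of them. MIR380 held 35 reads, with an interval of the corrected score of 69.7 to 139, MIR329-1 held 31 and 87.8 (59.7 to 125), and MIR1185-1 held 28 and 78.0 (51.8 to 113). Their median was 115, against 138 for the 33 genes under peaks, and they lay 147 to 1007 bp from a peak. All but 2 of the 53 snoRNA genes lay below the lowest of the 6. The counting interval of each of the 6 overlapped that of SNORD114-3 (55.8 to 119.7), so single genes are not resolved from the highest snoRNA genes.

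**Figure D2:**
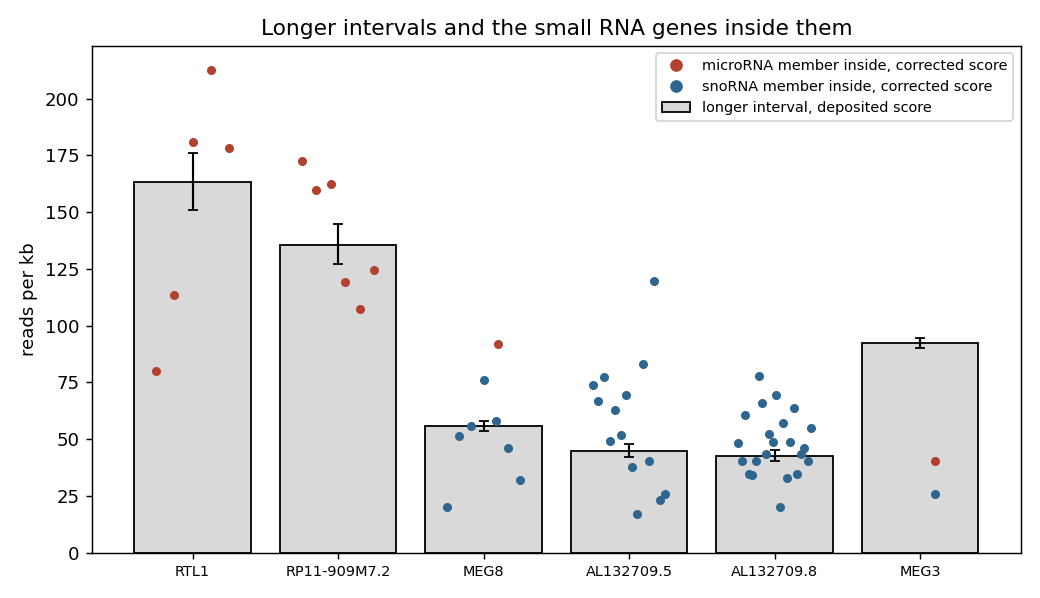
Deposited score in reads per kb of 6 longer intervals (bars, with exact Poisson 95% error bars) and corrected scores of the small RNA genes inside each (points, microRNA in red and snoRNA in blue, spread sideways in genomic order). RTL1 and RP11-909M7.2 and the genes in them lie high, and MEG8, AL132709.5 and AL132709.8 with their snoRNA genes lie low.

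The longer intervals, which need no correction, gave the same order for RTL1 and the distal part against the snoRNA array, but not for MEG3. RP11-909M7.2, an interval of 6.639 kb that holds 6 microRNA genes from MIR381 to MIR655 and lies wholly in a peak, had a deposited score of 136 (127 to 145). This was 3.10 times the score of AL132709.5 and AL132709.8 together, and RTL1 had 3.72 times that score. The 6 microRNA genes inside RP11-909M7.2 had a pooled corrected score of 141, close to that of the interval that holds them. MEG3 was above its members, with a deposited score of 92.3 (90.2 to 94.4) and 2 members that had a pooled corrected score of 33.5. MEG8 lay below MEG3 by deposited score, at 55.7, and above it by its members, at 53.9. The MEG3 interval starts at 101245747, and most of its 7 peaks lie before the first member.

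Of the other genes of the imprinted domain, DLK1, a Notch-like protein that holds back adipocyte differentiation, had a deposited score of 37.9 (34.1 to 42.03) reads per kb and 0 peaks. DIO3, the deiodinase that inactivates thyroid hormone, lay wholly in a peak at the far end of the domain, with a score of 241 (221 to 263) over the longer of its 2 intervals, 2.102 kb. DIO3OS, its antisense partner, scored 98.5 (91.9 to 106) with 46.5% in peaks. The widest peak near the cluster, 11850 bp from 101270101 to 101281950, lay inside the deposited MEG3 interval and before the first member. The control region of the domain is known to lie between DLK1 and MEG3, but its position was not used here. Whether it falls inside the deposited MEG3 interval, which starts at 101245747, and under this peak was not tested. Of the 6 domain genes found in the table, RTL1, MEG3, DIO3 and DIO3OS thus had high levels, and DLK1 and MEG8 lay nearer the median. The flanking genes had deposited scores of 13.7 reads per kb (DYNC1H1) to 48.0 (WDR25), with WARS, PPP2R5C, BEGAIN and HSP90AA1 between them and 0% to 7.13% of their length in peaks.

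The nearest microRNA genes outside the rule lay far off. MIR345, 526 kb before the window, held 10 reads and a corrected score of 27.0 (12.9 to 49.6), without a peak. MIR1247, 467 kb beyond it and next to DIO3, held 72 reads and 176 (138 to 222), wholly in a peak.

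**Figure D3:**
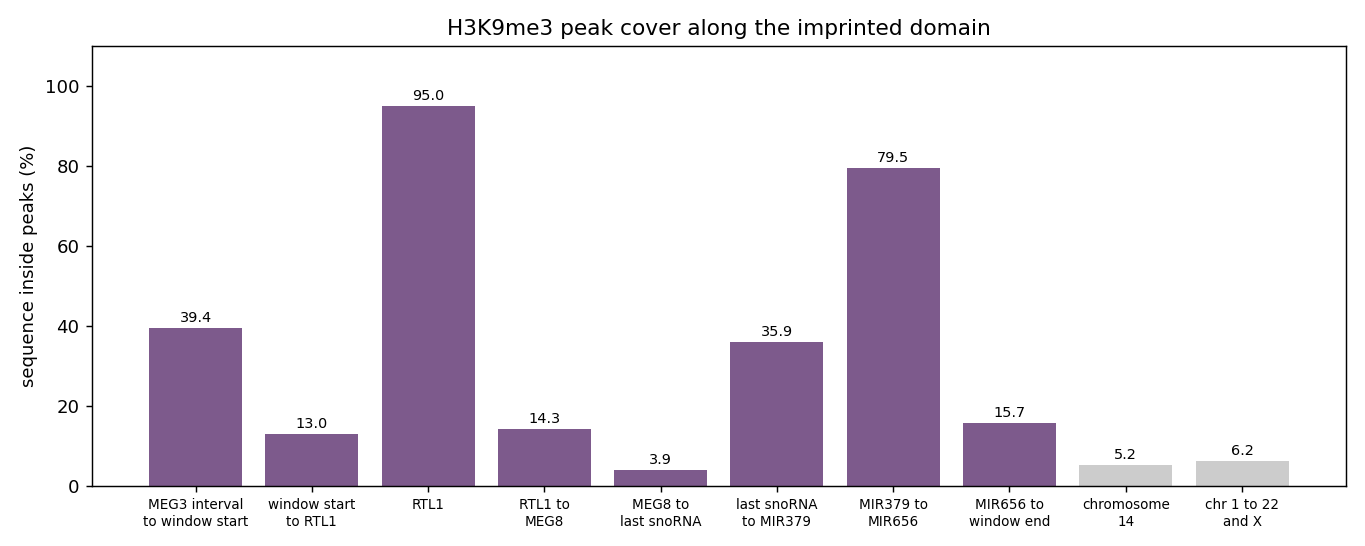
Percent of sequence inside deposited peaks in consecutive stretches of the imprinted domain (purple) and in chromosome 14 and chromosomes 1 to 22 and X (grey). RTL1 at 95% and MIR379 to MIR656 at 79.5% stand above MEG8 to the last snoRNA, at 3.90%, and above chromosome 14, at 5.18%.

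Peaks covered 24.5% of the window of 260 kb, in 24 peaks with a median width of 1800 bp. Windows of this length along chromosome 14 had a median cover of 2.45% (10th to 90th percentile 0% to 14.5%), and 15 of 412 (3.64%) had at least as much. Windows were laid from base 1 to the chromosome end, and gaps in the genome sequence were not left out. A window in such a gap can hold no peak. The window medians and shares, and the cover given for whole chromosomes, can therefore be too low. The cover was uneven: 79.5% from MIR379 to MIR656, 35.9% between the last snoRNA gene and MIR379, 3.90% from MEG8 to the last snoRNA gene, and 15.7% after MIR656. After the last peak of the stretch came 19.1 kb without a peak. Of 2398 windows of 44.7 kb along chromosome 14, 0 had as much cover as MIR379 to MIR656, and their maximum was 59.8%. Over chromosomes 1 to 22 and X, 155 of 67826 such windows (0.229%) did. The stretch was picked for its genes and with its peaks in view, so these shares describe it and test nothing. Whole chromosome 14 was not raised: its intervals of 2 kb or more had a median deposited score of 34.0, against 24.5 to 85.9 on the other autosomes.

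Other clusters of small RNA genes were set beside the 14q32 genes. The 39 genes from MIR379 to MIR656 had a median corrected score of 133, and the 53 snoRNA genes one of 48.9. The 49 microRNA genes of the chromosome 19 cluster had a median corrected score of 108 (25th to 75th percentile 81.5 to 122), and 61.2% overlapped a peak (46.2 to 74.8). The snoRNA arrays of the imprinted Prader-Willi region, SNORD116 with 33 intervals and SNORD115 with 50, had medians of 126 and 90.1, and 72.7% and 66.0% overlapped a peak. Of the snoRNA genes at 14q32, also an imprinted tandem array, 0 did. The pooled corrected score was 49.8 (46.6 to 53.2) for the 53 snoRNA genes at 14q32, 136 (129.9 to 143) for SNORD116 and 95.1 (90.6 to 99.8) for SNORD115. These counting intervals do not overlap; with 1 library the difference has no replicate check. The other 701 MIR and hsa-mir intervals had a median of 35.9 with 10.3% in peaks, and the other 373 SNORD intervals 30.2 with 18.5%. The chromosome 19 cluster is among those 701, and the SNORD115 and SNORD116 arrays are among those 373. Without them the other 652 MIR and hsa-mir intervals had a median of 32.9 with 6.44% in peaks, and the other 290 SNORD intervals one of 23.2 with 4.14%.

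**Figure D4:**
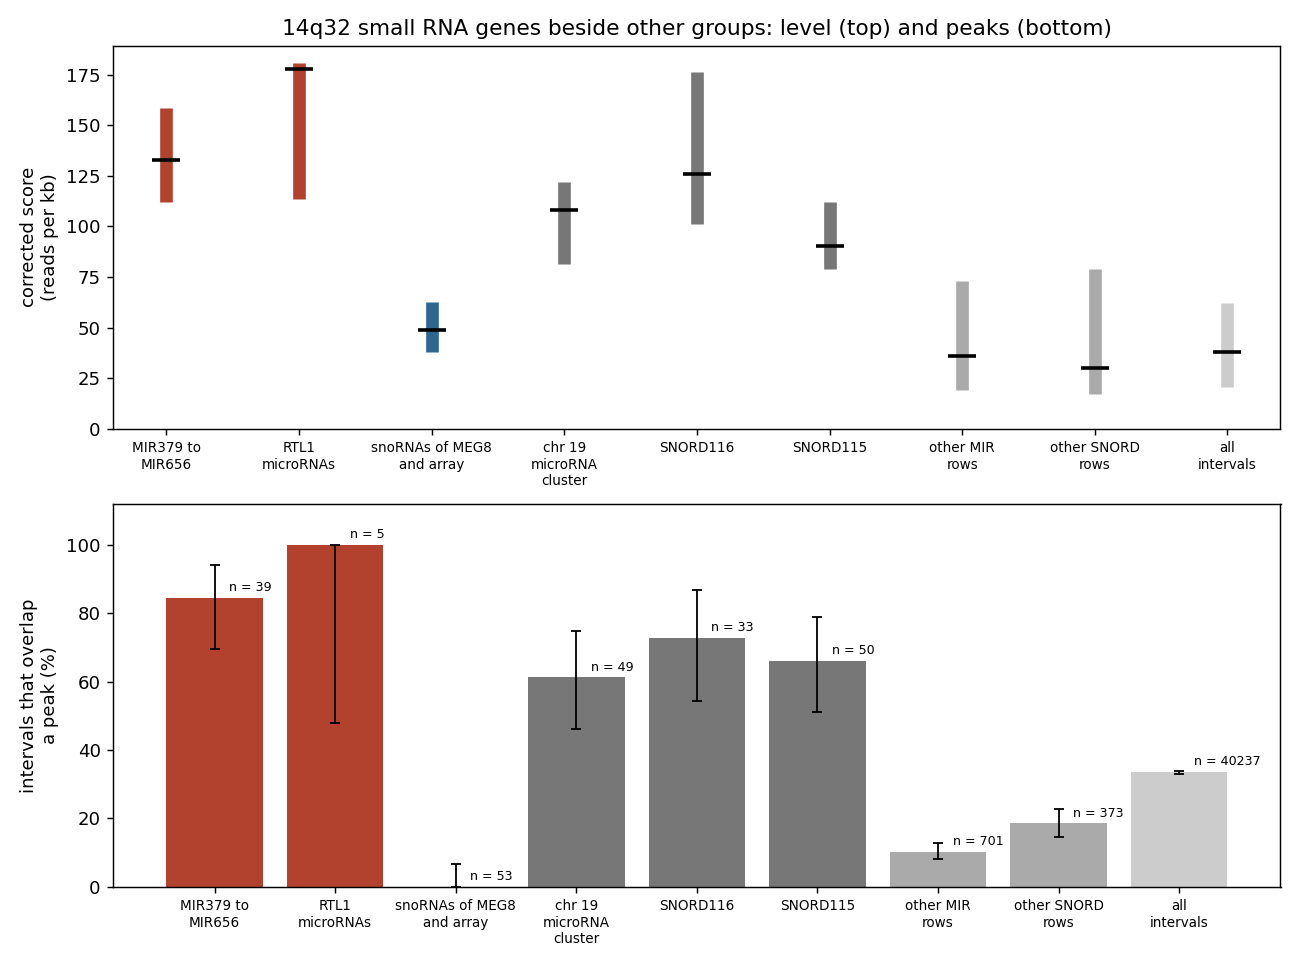
Top: median (line) and 25th to 75th percentile (bar) of the corrected score in reads per kb for 3 sets of members and for other groups. Bottom: percent of intervals that overlap a peak, with exact binomial 95% bars that take intervals as independent. Genes from MIR379 to MIR656 have a median of 133 and snoRNA genes of MEG8 and the array one of 48.9 with 0% under a peak, against 72.7% for SNORD116 and 66.0% for SNORD115.

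Genes with a shared seed were compared by level. MIR300 and MIR381, which share AUACAAG, had corrected scores of 138 and 172 reads per kb, and MIR154 and MIR487A, with AUCAUAC, had 193 and 150. MIR485 and MIR539 had 168 and 162, and MIR379 and MIR411 had 138 and 125. MIR323B, MIR410 and MIR494, with GGUUGUC in the 5p strand, had 144, 119 and 113. All 11 genes of these groups lay in peaks. They belong to the stretch from MIR379 to MIR656, where 33 of 39 genes (84.6%) did, so the count is near that share. The pairs MIR541 with MIR654 and MIR487A with MIR487B also share a seed. They had 160 and 110, and 150 and 160, all in peaks. In the pairs MIR329-1 with MIR329-2 and MIR1185-1 with MIR1185-2, also of shared seed, 1 gene of each lay in a peak, and levels ran from 78.0 to 100.3. Base composition of the hairpin did not order the levels in a single way. Over the 45 genes with a RefSeq hairpin the GC content ran from 28.8% to 65.3%, and its rank correlation with the corrected score was -0.07; it was 0.21 within the 37 from MIR379 to MIR656 and -0.74 within the 8 before MIR379. No hairpin was at hand for MIR432, the highest member, nor for MIR370, MIR381 and MIR412, so these genes are missing from the correlations. The correlations are across genes of 1 library that share peaks, so they are descriptions. Hairpins are shorter than the fragments, which were sheared towards 300 bp, so an effect of base composition on the reads was not tested. MIR770 and MIR665 had the highest GC content, 65.3% and 63.9%, and low scores. MIR134 and MIR668, at 60.3% and 59.1%, were among the higher genes of their stretch.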

How the data were processed

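The authors deposited a count of reads per gene interval, not normalised, the interval length in kb, and a signal, the gene score, which equals reads per kb in every row (largest difference 3.03e-06). Per the submitters' processing notes Bowtie2, MACS and hg19 were used, with no version, read filter or role of IgG named. The deposited peak list gives positions only, on a grid of 150 bp. Intervals sum to 78512210 reads, with overlaps counted more than once, and the number of mapped reads is unknown here. Values are not corrected for IgG or copy number.

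The flank was the ratio of summed reads to summed host density over intervals under 0.2 kb inside intervals of 2 to 200 kb (500 bp margin, 1% of pairs left out at either end), minus length. On simulated data with 2949 pairs, flanks of 0.1, 0.2 and 0.3 kb gave 0.096, 0.195 and 0.295. The simulated reads followed the model that the estimate assumes, so this checks the calculation only. Whether short intervals lie in denser or sparser parts of the longer ones was not tested. In the cluster, members and the longer interval that holds them implied flanks from 0.045 kb (MEG3) to 0.365 kb (AL132709.5), with 0.246 kb for RTL1. A peak counted with an overlap of 1 bp. Named genes include the 5 highest and 5 lowest microRNA and 3 highest and 3 lowest snoRNA members. Others were drawn from members with peaks, a fixed list of microRNAs and of domain and flanking genes, members outside peaks and genes with shared seeds. Some members with peaks, among them MIR495 of the fixed list, are given no value. Listed genes without an interval were not analysed here. The planned blocks, before, between and after the snoRNA members, left the first empty, and the 4 stretches were added. The members and lists were chosen with earlier results of these data known. Tools were Python 3.11.15 with scipy 1.17.1 for intervals, pandas 2.3.3 and numpy 2.4.6 for tables, and matplotlib 3.10.9 for figures.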

Additional observations from a re-analysis of the deposited data

How the results depend on the processing

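Of 29 alternative values for 8 results, 23 stayed within the bounds set around the main value. For the count of members with a peak the bound was 1.5 times. For the median score and its ratio to other small RNA genes it was the Poisson interval of the member nearest the median. For peak cover it was a binomial interval over steps of 150 bp, taken as independent. Neither of these is the counting error of the value it bounds, and only the pooled ratios were held to that. A change of direction could be found only in ratios, and 0 turned round. The median corrected score of members, 74.1 reads per kb, was 326 with no flank and 41.7 with a flank of 0.546 kb, 2 times as long, so its absolute level depends on the flank. The ratio of snoRNA to microRNA genes, 0.389, was 0.436 with no flank. The ratio of the block after the last snoRNA gene to the block between the first and last, 2.25, was 2.62 with the stretches by host, an alternative chosen after the data were seen. Also chosen after the data were seen, MIR379 to MIR656 over the snoRNA array, 2.66, was 2.43 with no flank and 3.10 from longer intervals. The number of snoRNA genes of MEG8 and the array at 2 times the median of all intervals went with the flank: 5 as given, 8 with a flank of 0.233 kb from length bins, 49 with no flank and 1 with 2 times the flank. That of MIR379 to MIR656, 39, was 39 in the first 2 of these alternatives and 28 with 2 times the flank. Members with a peak numbered 40 to 47. One row per locus and leaving out members with 0 reads changed nothing, since members do not overlap and 0 of them had 0 reads. These values are among the 23 and could not move. Depth limits single genes of 6 to 78 reads, and also the stretch from MEG3 to RTL1, whose 83 reads do not separate it from the median of all intervals or from MEG8 with the array. No paired analysis was possible because each group holds 1 library.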
